A study of Sus scrofa with 33 samples.

Results

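The genes of the myosin, troponin, tropomyosin, actin and alpha-actinin families were followed through acute right ventricular failure in pigs (Sus scrofa). They were the genes whose single platform-annotation symbol begins with MYH, MYL, MYO, MYBPC, TNNC, TNNI, TNNT, TPM, ACT or ACTN in the form of these families, each represented by its brightest probe set, by the mean over the 33 arrays. This gave 38 genes of the 6765 that had a probe set with a single symbol. They comprised 4 myosin heavy chains, 6 myosin light chains, 8 unconventional myosins, 1 myosin-binding protein, 8 troponins, 4 tropomyosins, 5 actins and 2 alpha-actinins. RNA came from the free wall of the right ventricle of 11 pigs, each biopsied at 3 times, with 1 Affymetrix array per biopsy. After the baseline biopsy the pulmonary artery was banded for 120 min to bring on right ventricular failure, and the pigs were then randomised. In the shunt arm, 6 pigs had 60 min of banding together with a modified Glenn shunt, which leads blood of the superior vena cava past the right ventricle into the lung circulation. The 5 pigs of the control arm had 60 min of banding alone. Strain, age and sex were not given in the labels, and every pig was banded, so that any change between biopsies covers all that happened in the hours between them.

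Striated muscle shortens when myosin heavy chains of the thick filament, each carrying light chains, pull on thin filaments of actin. Tropomyosin lies along the thin filament and, through the troponin complex (calcium-binding troponin C, inhibitory troponin I and tropomyosin-binding troponin T), keeps the myosin sites covered until calcium rises. Alpha-actinin cross-links the thin filaments at the Z-disc. Most of these families have separate genes for heart, skeletal muscle, smooth muscle and non-muscle cells, and the unconventional myosins carry membranes and vesicles along actin in many cell types. Of the 38 genes, 10 were grouped as cardiac, 8 as skeletal, 4 as smooth muscle, 8 as non-muscle and 8 as unconventional myosins. Several genes of these families were not analysed here, among them MYH6, MYL7, MYBPC3, ACTA1 and MYH11.

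All values are log2 RMA values, so that a difference of 1 is a doubling of hybridisation signal, and changes are differences within a pig. The number of arrays limits the precision. Values after ± are standard errors. These and the confidence intervals use a spread pooled over both arms. For 1 arm they therefore do not measure the spread among its own pigs. Levels of different probe sets are not comparable, because each has its own probes. For the ventricular cardiomyocyte markers outside the families, the mean log2 value over 6 genes lay between 11.55 and 12.15 on all 33 arrays. No other tissue was on the arrays, so these values do not test the labelled site. The signals of control RNAs added to each sample separated 3 array sets: shunt pigs 1 to 4, shunt pigs 5 and 6, and control pigs 1 to 5. Because no set held pigs of both arms, arm and array set cannot be told apart in any comparison between the arms.

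At 120 min of banding, against baseline, a few motors and cross-linkers of non-muscle cells were higher, and no sarcomere gene of the heart passed the test. Of the 38 genes 4 rose and none fell in the limma fit at an adjusted p under 0.05 (adjusted over 23999 probe sets), or 10.5%, against 33.9% of the 6765 genes. Among all genes 13.1% rose and 20.8% fell. The median size of the change was 0.07 over the 38 genes and 0.13 over all genes, both on the log2 scale. The genes that rose were MYH9, MYO1E, MYH10 and ACTN1. By group, 3 of 8 non-muscle genes and 1 of 8 unconventional myosins rose, and 0 of 10 cardiac, 0 of 8 skeletal and 0 of 4 smooth muscle genes passed the test in either direction. Over all 38 genes, 6 had an unadjusted p under 0.05, and with each pig left out in turn 2 to 6 genes were called. In a tissue biopsy, fewer cells of a type and less RNA per cell cannot be told apart.

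**Figure D1:**
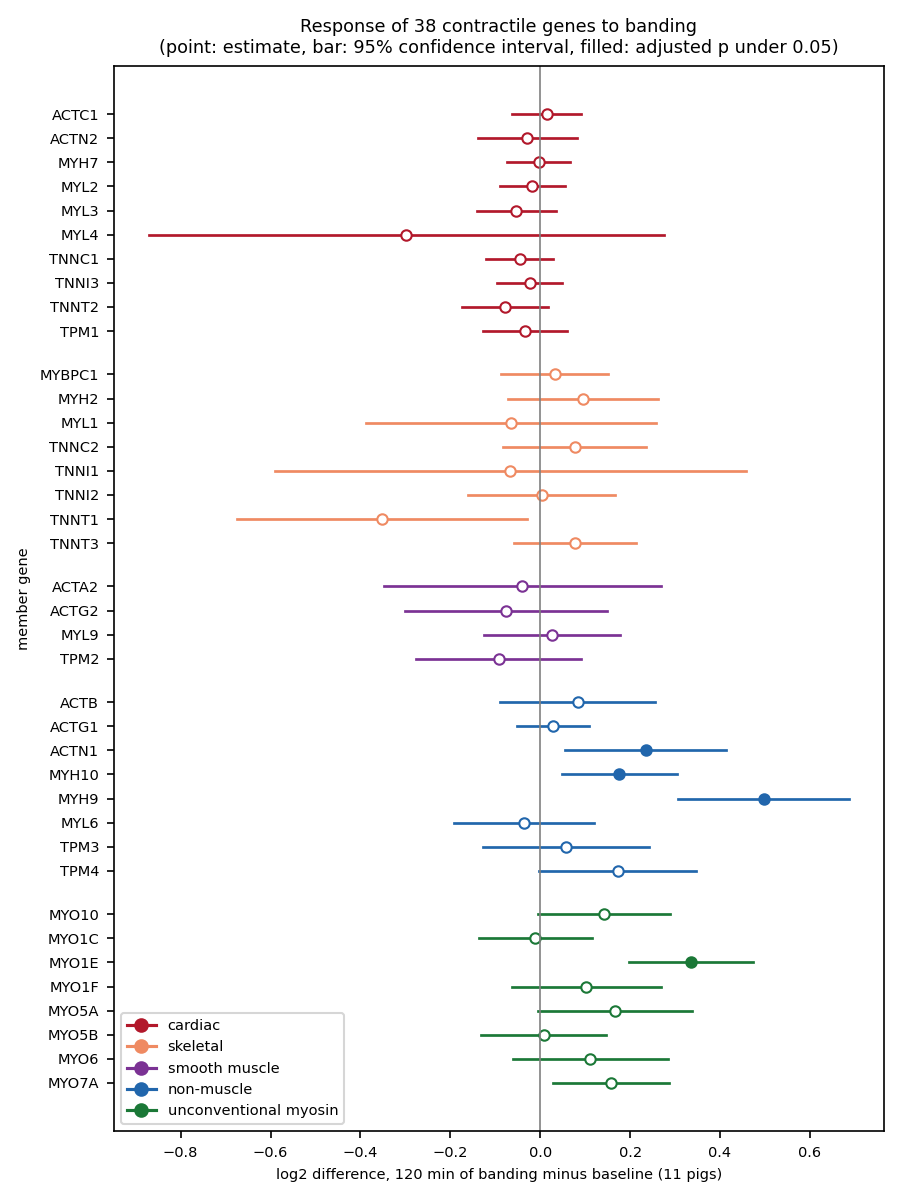
Log2 difference between 120 min of banding and baseline for the 38 genes (horizontal axis, log2 scale), with 95% confidence intervals over 11 pigs; colours are the 5 groups, and filled points passed an adjusted p of 0.05. Of the 10 cardiac genes 9 lie between -0.08 and 0.01, whereas MYH9 lies at 0.50 and MYO1E at 0.34.

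MYH9, the heavy chain of non-muscle myosin IIA and a force producer of the cell cortex and stress fibres, showed the largest change of the 38 genes. Its values at 120 min ran from 10.64 to 11.46 with a median of 11.12 over the 11 pigs, against 10.20 to 11.10 with a median of 10.52 at baseline. The 2 ranges overlapped, but 10 of 11 pigs were higher at 120 min than in their own baseline biopsy, and control pig 4 was the exception. The rise was 0.50 ± 0.09 (SE, n = 11 pigs), or 1.41-fold (limma adjusted p = 0.000214). Fitted within each array set, the rise of MYH9 measured 0.77 (shunt pigs 1 to 4), 0.41 (shunt pigs 5 and 6) and 0.31 (control pigs). A dimmer probe set for MYH9, with a mean of 5.60, changed by 0.03 ± 0.05 and did not pass (adjusted p = 0.708), and the mean of both probe sets rose by 0.26 (adjusted p = 0.00153).

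MYH10, the heavy chain of non-muscle myosin IIB, rose by 0.18 ± 0.06, or 1.13-fold (limma adjusted p = 0.0352). It measured 3.52 to 4.27 at 120 min (median 3.90) and 3.45 to 3.99 at baseline (median 3.82), with 10 of 11 pigs higher. These values lie near the bottom of the range of the arrays, which began at 2.21, and no detection calls were used here. The call lay close to the threshold and was not stable. It was kept in 5 of the 11 fits that left out 1 pig, with changes between 0.15 and 0.20 and an adjusted p of at most 0.0874.

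ACTN1, the non-muscle alpha-actinin that bundles actin at adhesions and stress fibres, rose by 0.23 ± 0.09, or 1.18-fold (limma adjusted p = 0.0438). At 120 min it ran from 9.04 to 9.96 with a median of 9.34, against 8.79 to 9.62 with a median of 9.16 at baseline, and again 10 of 11 pigs were higher. A further probe set for ACTN1 gave the same change, 0.23 ± 0.08 (adjusted p = 0.0255). The dimmest of its 3 probe sets changed by 0.12 and did not pass. With 1 pig left out in turn, the change stayed between 0.18 and 0.27 but passed the threshold in 1 of 11 fits, the one without control pig 4.

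The remaining non-muscle genes did not pass. TPM4, a short cytoskeletal tropomyosin, stood at 0.17 ± 0.08 (adjusted p = 0.131, 8 of 11 pigs higher). The cytoplasmic actins ACTB and ACTG1 stood at 0.08 and 0.03, the tropomyosin TPM3 at 0.06, and MYL6, the essential light chain of non-muscle and smooth muscle myosin, at -0.04.

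Among the unconventional myosins 1 passed, MYO1E. This single-headed motor links membranes to actin and works in endocytosis and cell adhesion. Its values were 4.43 to 5.49 at 120 min (median 5.11) and 4.51 to 4.98 at baseline (median 4.76). These levels are low, as the mean over all arrays, 4.93, exceeded that of 30.9% of probe sets. Only control pig 4 was lower at 120 min than at its own baseline. The rise was 0.34 ± 0.07, or 1.26-fold (limma adjusted p = 0.000472), and it passed in all 11 fits that left out 1 pig. By array set it measured 0.48 (shunt pigs 1 to 4), 0.50 (shunt pigs 5 and 6) and 0.15 (control pigs). Next came MYO5A, which moves vesicles and pigment granules, at 0.17 ± 0.08 (adjusted p = 0.138), and MYO7A, known for its role in the hair cells of the inner ear, at 0.16 ± 0.06 (adjusted p = 0.0618). MYO10 of filopodia stood at 0.14, MYO6, the motor that walks towards the minus end of actin, at 0.11, and MYO1F, a class I myosin of leukocytes, at 0.10. MYO1C and MYO5B, both of membrane traffic, stood at -0.01 and 0.01.

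Of 8 measured markers of neutrophils and monocytes, 3 rose at 120 min, against 13.1% of all genes. They included S100A9, a calcium-binding protein of neutrophil granules and cytosol, which rose by 1.38 ± 0.29. The mean log2 value of the 8 markers ran from 5.51 to 6.65 at 120 min in the shunt arm and from 5.34 to 5.66 in the control arm, against 5.20 to 5.65 and 5.32 to 5.56 at baseline. It was above the pig's own baseline in 6 of 6 shunt pigs and 2 of 5 control pigs, and control pig 1 was level at 5.38. MYH9 and MYO1E were higher in 6 of 6 shunt pigs and 4 of 5 control pigs. The part of these markers in the changes of MYH9, MYO1E, MYH10 and ACTN1 was not tested.

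**Figure D2:**
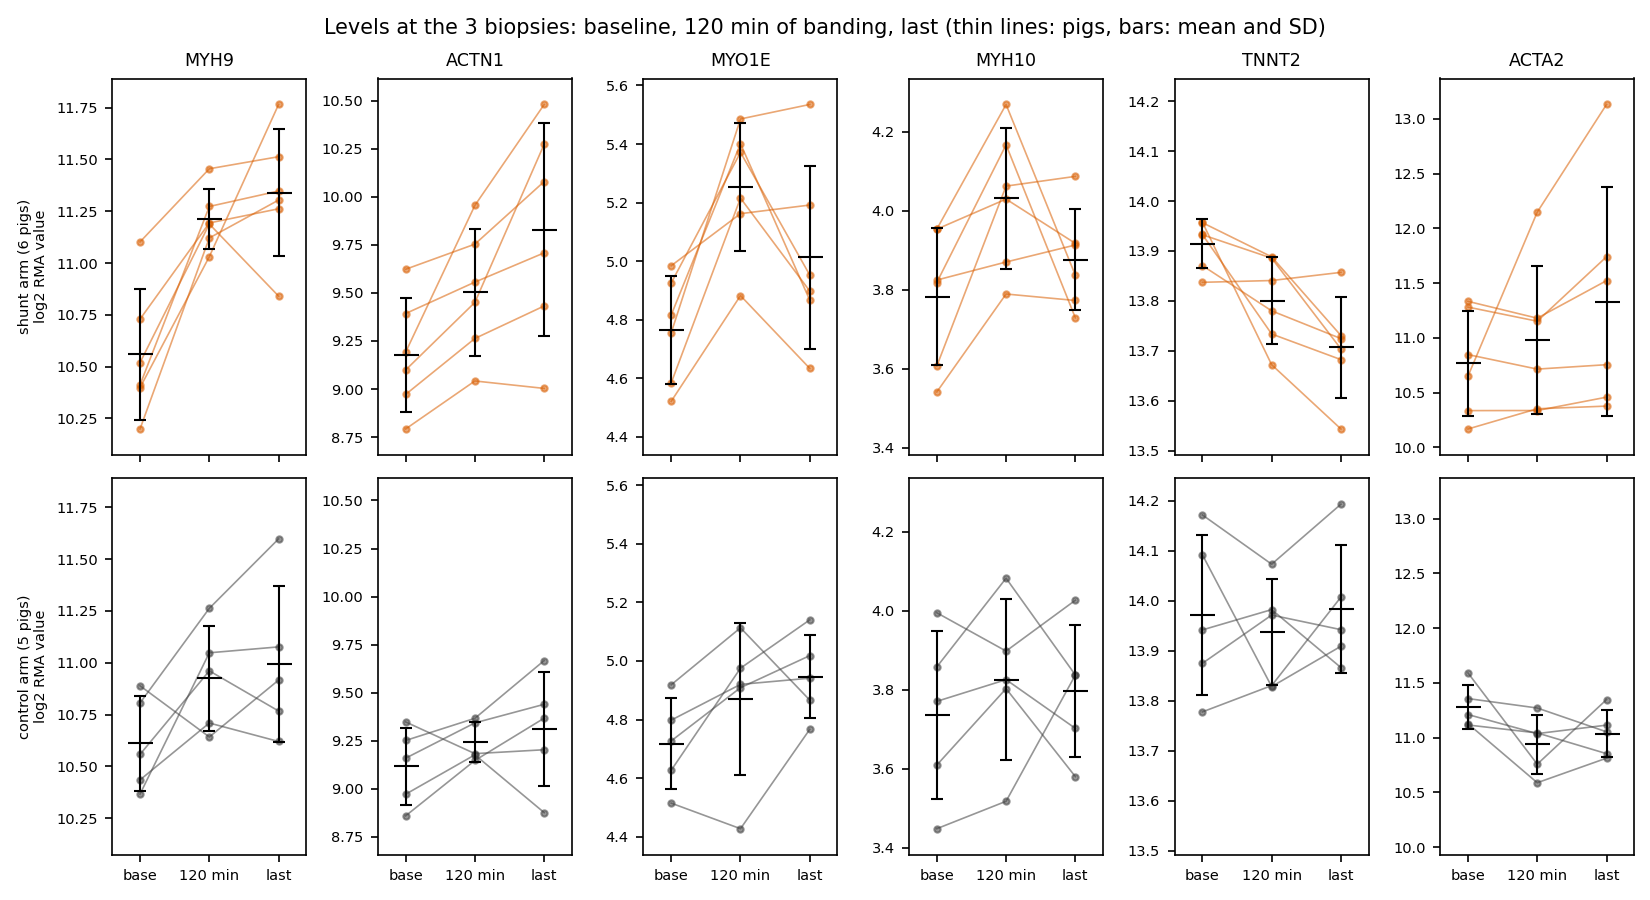
Log2 RMA values (vertical axis) at the 3 biopsies in the 6 pigs of the shunt arm (upper row) and the 5 pigs of the control arm (lower row) for MYH9, ACTN1, MYO1E, MYH10, TNNT2 and ACTA2; lines are pigs and bars the mean and SD. MYH9 ended above its baseline in all 6 shunt pigs and all 5 control pigs, and 1 shunt pig reached 13.13 for ACTA2 at the last biopsy.

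The cardiac thick filament showed no change that passed at 120 min. MYH7, the slow beta-myosin heavy chain and main motor of the ventricle, ran from 14.96 to 15.05 at 120 min (median 14.99) and from 14.98 to 15.02 at baseline (median 15.00). Its difference was 0.00, with a 95% confidence interval of -0.07 to 0.07. MYL2, the ventricular regulatory light chain, stood at 14.87 to 14.98 (median 14.92) at 120 min and 14.86 to 15.00 (median 14.96) at baseline. The ventricular essential light chain MYL3 stood at 14.06 to 14.39 (median 14.29) at 120 min, against 14.20 to 14.42 (median 14.28) at baseline. Groups overlapped almost fully for all 3 genes.

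The same was true of the thin filament and the Z-disc. Cardiac troponin C (TNNC1) ran from 14.22 to 14.41 at 120 min and from 14.34 to 14.49 at baseline, and 10 of 11 pigs were lower at 120 min by an average of 0.05, which did not pass (adjusted p = 0.355). Cardiac troponin I (TNNI3) lay at 14.73 to 14.85 at 120 min and 14.76 to 14.85 at baseline. Cardiac troponin T (TNNT2) lay at 13.67 to 14.07 at 120 min and 13.78 to 14.17 at baseline. None of these 3 subunits of the troponin complex passed, and the values at both times overlapped.

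TPM1, the main tropomyosin of striated muscle, measured 13.61 to 13.99 at 120 min and 13.73 to 14.03 at baseline. Cardiac actin (ACTC1) measured 13.98 to 14.33 at 120 min and 13.92 to 14.30 at baseline. ACTN2, the alpha-actinin of the sarcomeric Z-disc, measured 12.75 to 13.19 at 120 min and 12.83 to 13.19 at baseline. Across these 9 cardiac genes the changes lay between -0.08 and 0.01, and their 95% confidence intervals between -0.17 and 0.09. The mean values of the 9 probe sets ran from 13.06 for ACTN2 to 14.99 for MYH7, each above that of 99% of probe sets. These values lie near the top of the range of the arrays. Whether signal at this level still follows the amount of RNA was not tested. The small changes and narrow intervals therefore describe signal, and do not show that RNA levels were steady.

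MYL4, the remaining cardiac gene, spread more widely. It encodes the essential light chain of the atria and of the embryonic heart. Its values spread from 7.13 to 10.15 at 120 min (mean 8.18) and from 7.21 to 9.37 at baseline (mean 8.48). The mean change of -0.30 ± 0.28 did not pass (adjusted p = 0.447), but single pigs moved far in both directions: MYL4 was 2.36 higher at 120 min in control pig 5 and 1.75 lower in control pig 4. In the shunt arm the extremes were 0.65 higher in pig 6 and 1.65 lower in pig 4.

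Slow skeletal troponin I (TNNI1), the troponin I of the fetal heart, spread in a like manner. It was 1.74 higher at 120 min in shunt pig 1 and 1.50 higher in control pig 5, and 1.71 lower in shunt pig 4 and 1.50 lower in shunt pig 2. The mean change was -0.07 ± 0.25 (adjusted p = 0.872). NPPA, the gene of atrial natriuretic peptide, moved between 5.51 higher in control pig 5 and 2.86 lower in shunt pig 2. For MYL4 and NPPA the sign of the change was the same in 11 of 11 pigs, and for TNNI1 and NPPA in 10 of 11. The pairs were picked after their values had been seen. NPPA and MYL4 belong to the atrial marker list; of the other 3 measured genes of that list, SLN at 0.48 ± 0.24 and GJA5 at -0.12 ± 0.16 did not pass, and NR2F2 fell by 0.52 ± 0.09.

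**Figure D3:**
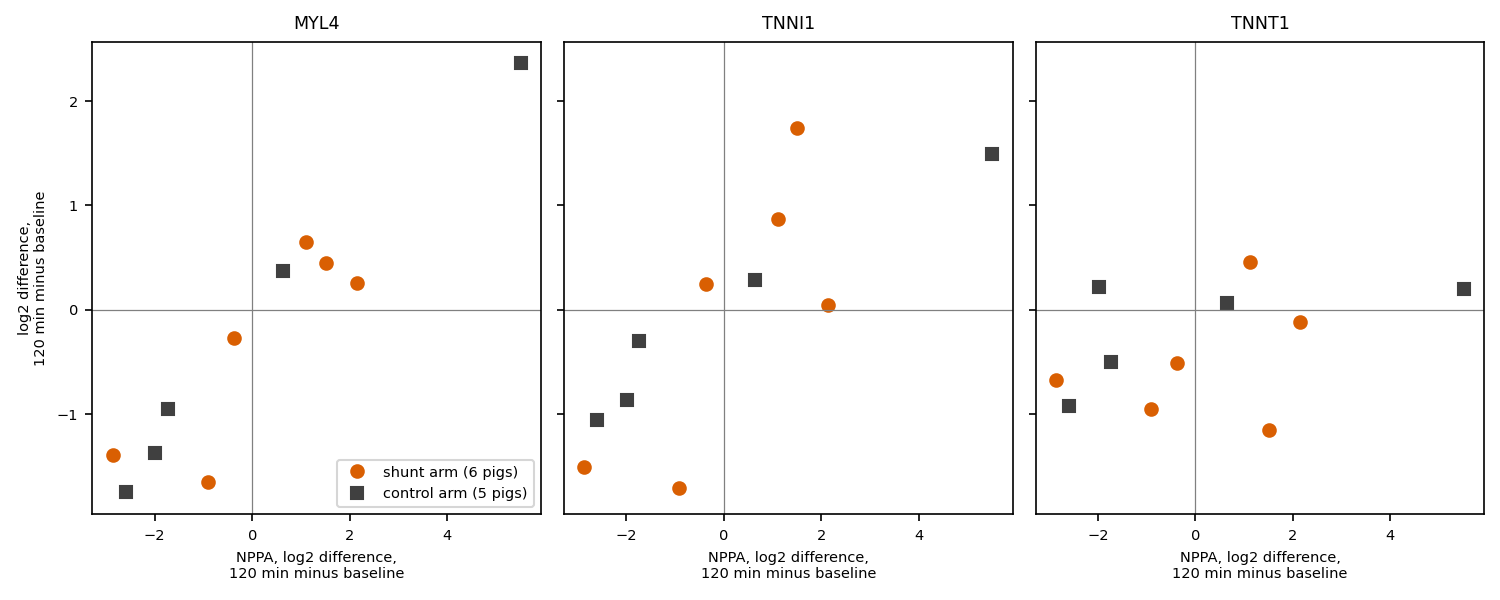
Change of MYL4, TNNI1 and TNNT1 at 120 min against baseline (vertical axes, log2) plotted on the change of NPPA in the same pig (horizontal axis, log2); circles are the 6 shunt pigs and squares the 5 control pigs. MYL4 and NPPA moved in the same direction in 11 of 11 pigs, with control pig 5 farthest up at 2.36 and 5.51.

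TNNT1, slow skeletal troponin T, gave the lowest estimate of the 38 genes at 120 min, -0.35 ± 0.16, which did not pass (limma adjusted p = 0.0951). It measured 9.16 to 11.03 at 120 min (median 10.11) and 9.54 to 11.09 at baseline (median 10.29), with 7 of 11 pigs lower. It shared the sign of NPPA in 8 of 11 pigs. The fast skeletal genes gave changes between -0.07 and 0.10, for the light chain MYL1 and the heavy chain MYH2. The fast troponins TNNC2, TNNI2 and TNNT3 lay at 0.08, 0.00 and 0.08, and MYBPC1, the slow skeletal myosin-binding protein C, at 0.03. Of these, MYL1 spread widely: control pig 4 had 11.09, 11.69 and 11.78 at the 3 biopsies, control pig 5 had 8.20, 6.27 and 7.97, and the other 9 pigs lay between 6.60 and 9.82. The skeletal markers outside the families, MYLPF and ATP2A1, stood at 0.08 and 0.11 at 120 min and did not pass.

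The smooth muscle genes did not pass at 120 min either. ACTA2, vascular smooth muscle actin, measured 10.34 to 12.15 at 120 min (median 11.04) and 10.17 to 11.59 at baseline (median 11.13). Its change was -0.04 ± 0.15, with 8 of 11 pigs lower and shunt pig 1 higher by 1.50. ACTG2, the enteric smooth muscle actin, stood at 6.55 to 8.17 at 120 min and 7.12 to 8.15 at baseline. MYL9, the regulatory light chain of smooth muscle myosin, stood at 8.998 to 10.27 at 120 min and 9.21 to 10.08 at baseline. For TPM2, a tropomyosin of smooth and slow skeletal muscle, the values were 9.17 to 9.91 at 120 min and 9.11 to 10.06 at baseline, with 9 of 11 pigs lower. Of 6 smooth muscle and pericyte markers outside the families, CNN1, the actin-binding protein calponin, rose by 1.14 ± 0.12 and TAGLN, transgelin, by 0.61 ± 0.16. The other 4 did not pass. Among all genes 13.1% rose and 20.8% fell.

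Different probe sets of the same gene did not always move together. The 38 genes had 60 probe sets with a single symbol, and 13 genes had more than 1. At 120 min all probe sets of a gene moved in the same direction for 7 of these 13, and 6 of the 22 further probe sets passed the threshold. For ACTG1, gamma-cytoplasmic actin, the brightest probe set changed by 0.03 ± 0.04. Its mean of 14.67 lay above that of 99.9% of probe sets, near the top of the range of the arrays. Whether signal at this level follows the amount of RNA was not tested here either. A further probe set, with a mean of 12.66, rose by 0.51 ± 0.11 (limma adjusted p = 0.00127), and another, with a mean of 9.13, fell by 0.16 ± 0.06 (adjusted p = 0.0297), a call kept in 6 of 11 fits that left out 1 pig. The 4 array-control probe sets for actin, annotated to the same gene and not tested, were 0.38 to 0.53 higher at 120 min, in 9 or 10 of 11 pigs. Which of these probe sets measures ACTG1 alone was not tested, and actin genes are close copies of one another in sequence, so the direction for ACTG1 is uncertain.

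TPM2 gave the widest disagreement. While 3 of its 4 probe sets lay between -0.09 and 0.18 at 120 min, the dimmest rose by 0.97 ± 0.26 (limma adjusted p = 0.00655). Over the 5 control pigs this probe set measured 9.09, 9.16, 9.56, 9.20 and 9.13 at 120 min in pigs 1 to 5, against 7.70, 9.37, 8.19, 6.73 and 6.48 at baseline. It was higher at 120 min in control pigs 1, 3, 4 and 5 and lower in control pig 2. A further probe set of ACTN2 rose by 0.12 ± 0.05 (adjusted p = 0.0491), against -0.03 for the brightest, a call kept in 3 of 11 fits that left out 1 pig. For MYO5A a further probe set fell by 0.29 ± 0.09 (adjusted p = 0.0134), against 0.17 for the brightest. Tropomyosin and actinin transcripts are spliced in alternative forms, and which forms these probe sets reach was not tested.

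**Figure D4:**
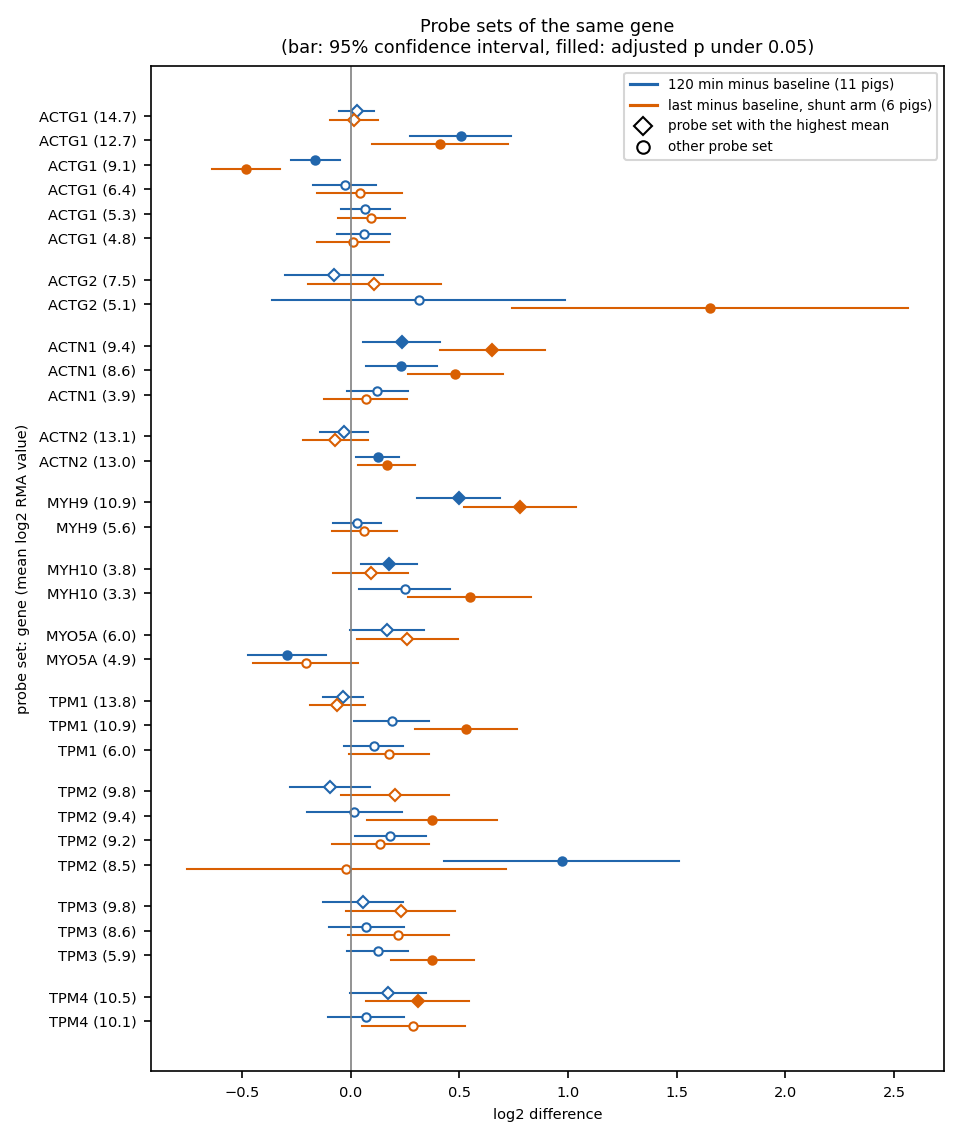
Log2 difference (horizontal axis) of each probe set of 11 genes, 120 min minus baseline over 11 pigs and last biopsy minus baseline over the 6 shunt pigs, with 95% confidence intervals; diamonds are the probe sets with the highest mean, filled points passed an adjusted p of 0.05, and the mean log2 value stands beside each gene. At 120 min ACTG1, ACTG2, ACTN2, MYO5A, TPM1 and TPM2 have probe sets on both sides of 0.

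During the last 60 min no gene of these families changed past the threshold, as was the case for every gene on the arrays. In the shunt arm 0 of 38 passed (background 0%), and 3 had an unadjusted p under 0.05 in the limma fit. These were ACTN1 at 0.33 ± 0.12 (adjusted p = 0.411), MYO1E at -0.24 ± 0.09 (adjusted p = 0.427) and TPM2 at 0.28 ± 0.12 (adjusted p = 0.505). The TPM2 change was 1.29 in shunt pig 1 and between -0.16 and 0.28 in the other shunt pigs. Likewise 0 of 38 passed in the control arm (background 0%) and 0 had an unadjusted p under 0.05. The smallest p-values belonged to MYH2 at -0.21, TNNT3 at 0.16 and MYL1 at 0.39, each with an adjusted p of 1. The difference between the arms over this time, which sets banding with the shunt against banding alone, gave 0 of 38 (background 0%) and 1 at an unadjusted p under 0.05. It was MYO1E at -0.32 ± 0.13 (adjusted p = 1), followed by MYH2 at 0.32 ± 0.16 and TNNI2 at 0.26 ± 0.16. For MYH7 the 95% confidence intervals of the last 60 min ran from -0.13 to 0.07 in the shunt arm and from -0.11 to 0.10 in the control arm.

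Over the whole course, last biopsy against baseline, 3 of 8 non-muscle genes, MYH9, ACTN1 and TPM4, rose and cardiac troponin T fell in the shunt arm. There 7 of 38 rose and 1 fell, or 21.1%, against 40.3% of all genes, of which 16.7% rose and 23.6% fell. None passed in the control arm, against 9.98% of all genes, and 5 had an unadjusted p under 0.05. The difference between the arms was past the threshold for 0 of 38, against 0.0148% of all genes, with 7 at an unadjusted p under 0.05. A change that passed in the shunt arm alone is therefore not shown to differ from the control arm. Without shunt pig 1, which had the highest ACTA2 at the last biopsy, 5 genes rose and none fell in the shunt arm.

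MYH9 again changed most among the genes that passed. In the shunt arm its lowest, median and highest values were 10.84, 11.33 and 11.77 at the last biopsy, against 10.20, 10.47 and 11.10 at baseline. Control pigs 1 to 5 had 11.08, 11.60, 10.62, 10.92 and 10.77 at the last biopsy, against 10.37, 10.81, 10.43, 10.89 and 10.56 at baseline. Every pig of both arms ended above its own baseline. The rise in the shunt arm was 0.78 ± 0.12 (n = 6 pigs), or 1.72-fold (limma adjusted p = 3.43e-05). The change in the control arm was 0.38 ± 0.14 (n = 5 pigs), which did not pass (adjusted p = 0.0836). By pig the changes ran from 0.32 to 1.37 in the shunt arm and from 0.03 to 0.79 in the control arm. The arms differed by 0.39 ± 0.19 (adjusted p = 0.396).

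ACTN1 ran from 9.003 to 10.48 with a median of 9.89 at the last biopsy of the shunt arm, against 8.79 to 9.62 with a median of 9.15 at baseline. It rose in this arm by 0.65 ± 0.12, or 1.57-fold (limma adjusted p = 0.000125), and was higher in 6 of 6 pigs, by 0.21 to 1.29. Control pigs 1 to 5 had 9.44, 9.67, 8.88, 9.20 and 9.37 at the last biopsy, against 9.16, 9.25, 8.97, 9.35 and 8.86 at baseline, a change of 0.19 ± 0.13 with 3 of 5 pigs higher. The arms differed by 0.46 ± 0.17 (adjusted p = 0.279). Both MYH9 and ACTN1 passed in the shunt arm in all 11 fits that left out 1 pig.

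TPM4 rose in the shunt arm by 0.31 ± 0.11 (limma adjusted p = 0.0409, 5 of 6 pigs higher) to 10.23, 10.78 and 11.21 as lowest, median and highest value, against 10.15, 10.33 and 11.10 at baseline. Control pigs 1 to 5 had 10.23, 11.09, 10.28, 10.56 and 10.54 at the last biopsy, against 10.30, 10.74, 10.10, 10.66 and 10.11 at baseline. The groups overlapped over most of their range. The call was lost without shunt pig 1, 2, 3 or 5, and without shunt pig 1 the change was 0.18 (adjusted p = 0.263).

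MYO1E rose in the shunt arm by 0.25 ± 0.09 (limma adjusted p = 0.0382), with lowest, median and highest values of 4.63, 4.93 and 5.54 at the last biopsy, against 4.52, 4.79 and 4.98 at baseline. Control pigs 1 to 5 had 5.02, 5.14, 4.87, 4.77 and 4.94 at the last biopsy, against 4.73, 4.63, 4.92, 4.51 and 4.80 at baseline. The control change of 0.23 ± 0.10 was of like size and did not pass (adjusted p = 0.172). The difference between the arms was 0.02, with a 95% confidence interval of -0.26 to 0.30. Its call in the shunt arm was lost without shunt pig 2, 3 or 6 or control pig 1, and without shunt pig 3 the change was 0.14 (adjusted p = 0.263).

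MYO7A rose by 0.23 ± 0.08 in the shunt arm (limma adjusted p = 0.0423), to between 4.97 and 5.07 (median 5.03) at the last biopsy, against 4.50 to 5.05 (median 4.82) at baseline. The values of control pigs 1 to 5 were 5.22, 4.95, 5.01, 5.15 and 5.22 at the last biopsy, against 5.09, 4.88, 5.15, 4.91 and 5.23 at baseline. The 6 shunt pigs thus ended close together, within the range of the control arm. Levels were low, with a mean over all arrays of 5.01 that exceeded that of 32.0% of probe sets. The call was kept in 3 of 11 fits that left out 1 pig, and without shunt pig 4 the change was 0.17 (adjusted p = 0.125).

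Fast skeletal troponin C (TNNC2) rose by 0.27 ± 0.10 in the shunt arm (limma adjusted p = 0.0465, 5 of 6 pigs higher). In shunt pigs 1 to 6 it measured 4.59, 4.97, 5.12, 5.32, 4.66 and 5.03 at the last biopsy, against 4.59, 4.87, 4.42, 4.71, 4.53 and 4.94 at baseline. In control pigs 1 to 5 it measured 4.94, 5.10, 4.78, 4.70 and 4.99 at the last biopsy, against 5.04, 5.18, 4.64, 5.07 and 4.87 at baseline. Levels were low in both arms. The call was kept in 5 of 11 fits that left out 1 pig, and without shunt pig 3 the change was 0.19 (adjusted p = 0.235).

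Cardiac troponin T (TNNT2), which anchors the troponin complex on tropomyosin, was the one gene of these families that fell. Its lowest, median and highest values in the shunt arm were 13.54, 13.71 and 13.86 at the last biopsy, against 13.84, 13.93 and 13.96 at baseline. In the control arm pigs 1 to 5 had 13.91, 13.87, 14.01, 13.94 and 14.19 at the last biopsy, against 14.09, 13.94, 13.78, 13.87 and 14.17 at baseline. Of the 6 shunt pigs 5 were lower at the last biopsy, whereas 3 of the 5 control pigs were higher. The fall in the shunt arm was 0.21 on the log2 scale, a change of -0.21 ± 0.06 or 0.866-fold (limma adjusted p = 0.0128), against 0.01 ± 0.07 in the control arm. The arms differed by -0.22 ± 0.09 (adjusted p = 0.341). Without shunt pig 1 the change was -0.17 and no longer passed (adjusted p = 0.0723).

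The other 9 cardiac genes also had estimates below 0 in the shunt arm, without passing. MYL3 stood at -0.12 ± 0.06 (limma adjusted p = 0.11), with 13.92 to 14.44 at the last biopsy and 14.27 to 14.36 at baseline. MYH7, TNNC1 and ACTC1 were lower in 6 of 6 shunt pigs, by -0.04, -0.07 and -0.08 on average, and MYL2, TNNI3 and TPM1 in 5 of 6, by -0.04, -0.07 and -0.06. In the control arm the 9 cardiac genes other than MYL4 lay between -0.04 and 0.04. The share of cardiac estimates below 0 was not tested. Of the 6 ventricular cardiomyocyte markers outside the families, 2 fell in the shunt arm and 1 rose, the small heat shock protein HSPB7. Among all genes 23.6% fell and 16.7% rose. The 2 that fell were PLN (phospholamban, an inhibitor of the calcium pump), by 0.77 ± 0.13, and CKM (muscle creatine kinase), by 0.22 ± 0.06. The median change of the 6 was -0.19 in shunt pigs, against -0.04 in control pigs, where 0 passed. Their mean log2 value lay between 11.55 and 12.06 at the last biopsy and 11.66 and 11.99 at baseline in shunt pigs. In control pigs it lay between 11.64 and 12.10 at the last biopsy and 11.61 and 11.98 at baseline. The part of these markers in the change of TNNT2 was not tested.

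TNNI1, TNNT1 and MYL4, set beside NPPA above, did not pass in either arm over the whole course. TNNI1 stood at -0.51 ± 0.34 in shunt pigs, against -0.39 ± 0.38 in control pigs. TNNT1 stood at -0.46 ± 0.21 in shunt pigs (limma adjusted p = 0.10, 5 of 6 pigs lower), against -0.23 ± 0.23 in control pigs. For MYL4 the changes were -0.30 ± 0.38 in shunt pigs and -0.71 ± 0.41 in control pigs.

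ACTA2, vascular smooth muscle actin, was the smooth muscle gene that passed over the whole course. It rose in the shunt arm by 0.56 ± 0.20, or 1.48-fold (limma adjusted p = 0.0355), with values of 10.38, 11.14 and 13.13 (lowest, median, highest) at the last biopsy and 10.17, 10.75 and 11.33 at baseline. Control pigs 1 to 5 had 11.05, 10.81, 10.85, 11.35 and 11.11 at the last biopsy, against 11.36, 11.13, 11.12, 11.59 and 11.21 at baseline, all lower than their own baseline. The control change of -0.24 ± 0.22 did not pass, and the arms differed by 0.81 ± 0.30 (adjusted p = 0.27). These standard errors are pooled over both arms. By pig, the changes ran from -0.31 to -0.10 in the control arm and from -0.09 to 2.48 in the shunt arm.

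The ACTA2 call rested on shunt pig 1. Its ACTA2 was 10.65, 12.15 and 13.13 at the 3 biopsies. Without this pig the change in the shunt arm was 0.18 (limma adjusted p = 0.233), and without shunt pig 5 it was 0.58 (adjusted p = 0.0555). In the same pig TAGLN was 8.26, 10.38 and 11.15, and CNN1 was 6.35, 8.39 and 8.82. PDGFRB of the same marker list was 10.16, 10.34 and 10.67, and RGS5 was 11.08, 10.91 and 10.93. DES was 12.13, 11.87 and 11.28, MYOCD was 7.33, 7.27 and 6.26, and MYL9 of the families was 9.76, 9.69 and 9.45. DES is also counted below among the partners of the Z-disc, so it does not mark smooth muscle alone. Over the shunt arm 2 of the 6 markers rose and 1 fell, against 16.7% and 23.6% of all genes. A further probe set of ACTG2 was 4.75, 8.67 and 10.28 in shunt pig 1. That ACTG2 probe set rose by 1.65 ± 0.44 in the shunt arm (adjusted p = 0.00513), or by 0.88 without shunt pig 1 (adjusted p = 0.0165), whereas the brightest one stood at 0.11 ± 0.15. In the other 5 shunt pigs it lay between 4.33 and 6.41 at the last biopsy, against 4.15 to 4.70 at baseline. DES was also one of the 6 smooth muscle markers outside the families that were averaged. Their mean log2 value lay between 9.35 and 9.90 in the shunt arm at the last biopsy, against 8.95 to 9.47 at baseline. In the control arm it lay between 9.41 and 9.83, against 9.08 to 9.61. Whether the amount of smooth muscle in the biopsies had a part in the result was not tested.

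Further probe sets widened the picture of the tropomyosins in the shunt arm. For TPM1 the brightest probe set stood at -0.06, while another, with a mean of 10.92, rose by 0.53 ± 0.11 (limma adjusted p = 0.000733). This second probe set had 10.58, 10.99 and 11.65 at the last biopsy, against 10.18, 10.46 and 11.07 at baseline, and stood at 0.00 in the control arm. For TPM3 a further probe set rose by 0.38 ± 0.09 (adjusted p = 0.00243), and for TPM2 one of its further probe sets rose by 0.37 ± 0.14 (adjusted p = 0.0481). The TPM2 value was 0.13 without shunt pig 1 (adjusted p = 0.376), and its call was kept in 3 of 11 fits that left out 1 pig. A dim probe set of MYH10 rose by 0.55 ± 0.14 (adjusted p = 0.0029), while the brightest stood at 0.09. The ACTG1 probe set with a mean of 9.13 fell by 0.48 ± 0.07 on the log2 scale (adjusted p = 2.42e-05), with values of 8.57 to 9.20 at the last biopsy and 9.29 to 9.52 at baseline, which did not overlap. The ACTG1 probe set with a mean of 12.66 went the other way and rose by 0.41 (adjusted p = 0.0402). This second ACTG1 call was kept in 4 of 11 fits that left out 1 pig.

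**Figure D5:**
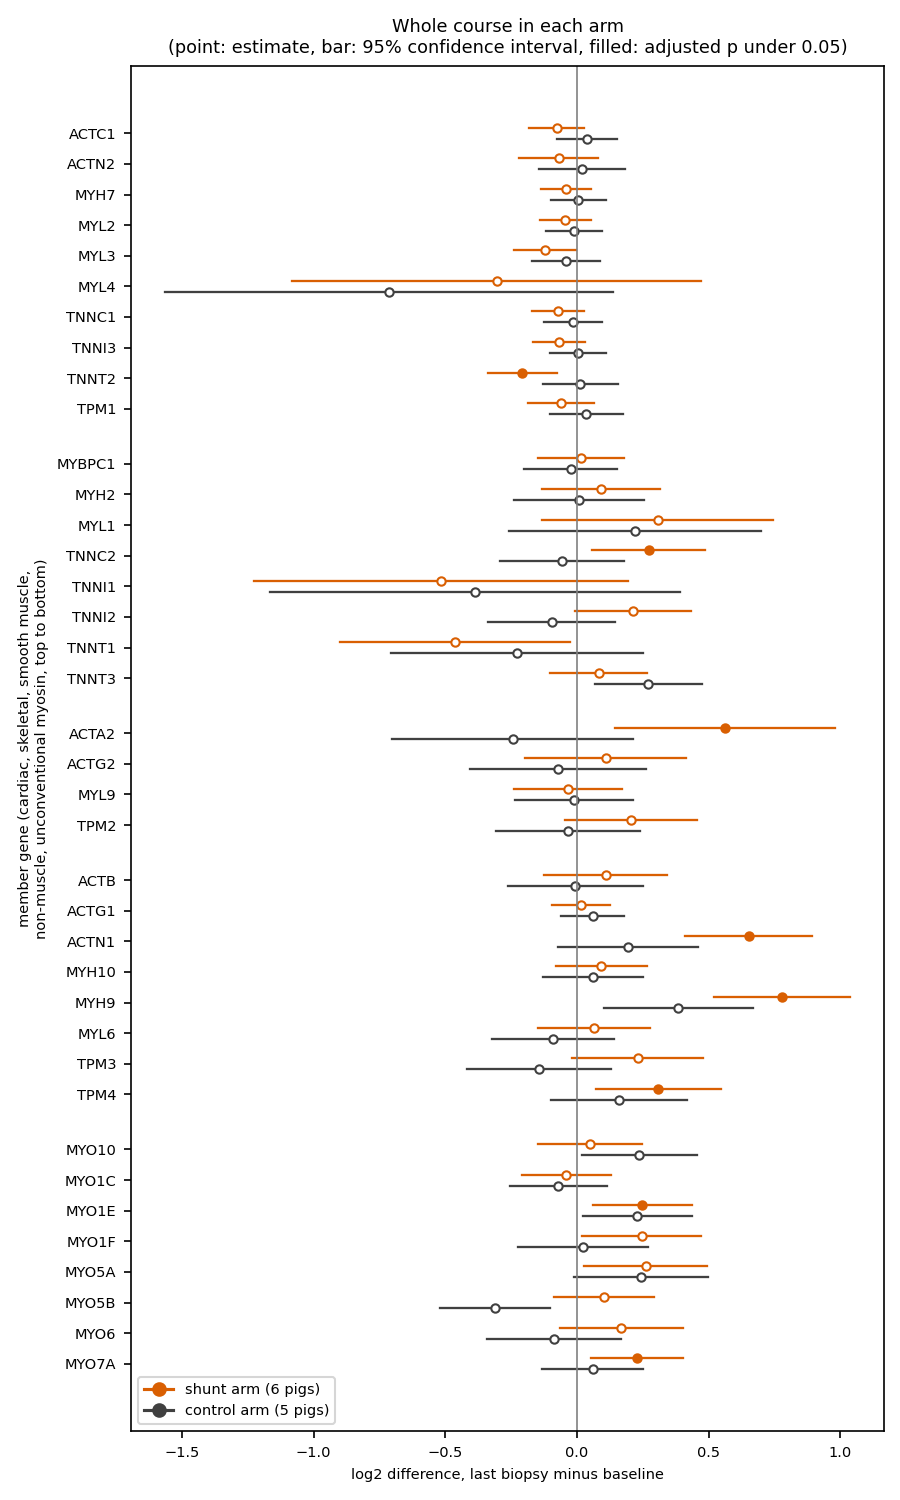
Log2 difference between the last biopsy and baseline (horizontal axis) for the 38 genes in the shunt arm (6 pigs, upper of each pair) and the control arm (5 pigs, lower of each pair), with 95% confidence intervals; filled points passed an adjusted p of 0.05. MYH9 at 0.78 and ACTN1 at 0.65 lie farthest above 0 in the shunt arm, and no gene passed in the control arm.

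In the control arm the smallest p-values over the whole course were those of MYO5B at -0.31 ± 0.10 (limma adjusted p = 0.0551), MYH9, given above, and TNNT3, fast skeletal troponin T, at 0.27 ± 0.10 (adjusted p = 0.0884). MYO5B was lower in 5 of 5 control pigs, and TNNT3 higher in 5 of 5. For the difference between the arms the smallest p-values were those of MYO5B at 0.41 ± 0.14 (adjusted p = 0.214), ACTA2 and ACTN1. The dimmest TPM2 probe set rose in the control arm by 1.51 ± 0.39 (adjusted p = 0.015), or 1.11 without control pig 4 (adjusted p = 0.121), whereas it stood at -0.02 ± 0.35 in the shunt arm. At the last biopsy it measured 8.98, 9.54, 8.83, 9.82 and 8.83 in control pigs 1 to 5.

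Neutrophil and monocyte markers also stood higher at the last biopsy. In the shunt arm 5 of 8 rose, S100A9 by 3.48 ± 0.39, against 16.7% of all genes. In the control arm 1 of 8 rose, S100A9 by 1.39 ± 0.43, against 9.98% of all genes called in either direction. The mean log2 value of the 8 markers ran from 5.65 to 7.10 in the shunt arm and from 5.55 to 5.88 in the control arm at the last biopsy. Their part in the changes of MYH9, ACTN1 and the other genes of the families was not tested.

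The arms were also compared before they were treated differently. At baseline 1 of 38 genes differed in the limma fit on the 11 baseline arrays, against 0.0443% of all genes, and 7 had an unadjusted p under 0.05. The gene was MYO5B, a motor of recycling endosomes known from epithelia. Its lowest, median and highest values in the shunt arm were 4.18, 4.70 and 5.11, and the control pigs 1 to 5 had 8.09, 7.41, 5.91, 6.16 and 7.61. Every control pig was above every shunt pig. The groups also stayed apart at 120 min, when shunt pigs had 4.19 to 5.34 and control pigs 5.58 to 7.80. At the last biopsy shunt pigs had 4.40 to 5.19 and control pigs 5.73 to 7.79. The baseline difference was -2.39 ± 0.34 (adjusted p = 0.045), and it was kept in 1 of the 11 fits that left out 1 pig, with estimates between -2.67 and -2.12. Next in order were MYL1 at -1.54 ± 0.55 (adjusted p = 0.307) and ACTA2 at -0.51 ± 0.20 (adjusted p = 0.342), neither of which passed.

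For the difference between the arms in the response to banding, 0 of 38 genes passed (background 0%), and 3 had an unadjusted p under 0.05. These were MYO5B at 0.44 ± 0.14 (limma adjusted p = 0.481), MYO1E at 0.34 ± 0.13 (adjusted p = 0.655) and MYO7A at 0.29 ± 0.13 (adjusted p = 0.681). For MYH9 the difference was 0.34, with a 95% confidence interval of -0.05 to 0.72.

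Genes that act around the filaments were followed at 120 min through 4 lists that leave out the 38 genes. Their counts are a description, beside 33.9% of all genes called, 13.1% up and 20.8% down. Of 21 measured partners of the Z-disc, M-band and titin, 9 rose and 3 fell. XIRP1, which binds actin at intercalated discs and adhesion sites, rose by 2.50 ± 0.19. PDLIM3, which binds alpha-actinin at the Z-disc, rose by 1.41 ± 0.14, ANKRD1, a titin-bound stretch-responsive protein, by 0.77 ± 0.07, and the chaperone CRYAB by 0.54 ± 0.06. All 4 were higher in 11 of 11 pigs.

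Of 15 genes that set the phosphorylation of myosin light chains, 4 rose and 3 fell. The small GTPase RHOB rose by 0.61 ± 0.08, while PPP1CC, a catalytic subunit of protein phosphatase 1, fell by 0.31 ± 0.05. Of 29 genes of actin filament assembly and turnover, 5 rose and 4 fell, a share near that over all genes. Among them TWF2, a twinfilin that binds actin monomers, rose by 0.55 ± 0.07 and the formin FHOD1 by 0.44 ± 0.10, and profilin 2 (PFN2) fell by 0.51 ± 0.08 in 11 of 11 pigs. Of 18 genes on a list of SRF, its cofactors and their targets, 8 rose and 4 fell. Among them CYR61, a secreted matrix protein, stood at 3.17 ± 0.27 and FHL1, a LIM protein of muscle, at 0.69 ± 0.06. ANKRD1 stood on this list as well as on that of the Z-disc. Medians over the 4 lists were 0.20, 0.05, 0.00 and 0.15, against 0.01 over the 38 genes and -0.02 over all genes.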

How the data were processed

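The authors deposited log2 values, 1 for each probe set and array, which they made with RMA, per the submitters' processing notes. The RMA software and version were not given in the sources used here. They were used as deposited (24123 probe sets, 124 controls left out, 23999 tested), and array medians lay between 6.10 and 6.17. Gene symbols came from the platform annotation, and all 38 genes matched a RefSeq entry of the same symbol. No genome or sequence tables were used, so no positions or sequences appear.

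All 33 arrays entered 1 limma fit (limma 3.58.1, R 4.3.3), with pig as a fixed block and coefficients for the later biopsies within each arm (18 residual degrees of freedom). The labels give the same pig at each biopsy, and after removal of group means the median correlation was 0.395 between arrays from 1 pig, against -0.052 between pigs. Baselines were compared on the 11 baseline arrays. Tests were two-sided, with Benjamini-Hochberg adjustment over all tested probe sets and a threshold of 0.05. The fit was tested on simulated data.

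Values by sample are given for genes past the threshold in any comparison and for fixed cardiac and smooth muscle panels, and the other members appear with their change. MYL1, TNNI1 and TNNT1 were singled out after their values were seen. Where none passed, the 3 with the smallest p are given, and up to 4 per list, of which some are not reported here. The genes and lists were chosen with earlier results of these data known. The alternatives were median centring, renewed quantile normalisation, no replicate block, a random block (statmod 1.5.0), a trended robust fit, array weights, omission of the dimmest 30% of probe sets, other probe sets, single array sets and each pig left out.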

Additional observations from a re-analysis of the deposited data

Results flagged for a closer look

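In 228 groups of 5 or 6 arrays (38 genes, 2 arms, 3 biopsies), 10 held an array whose gap to its nearest neighbour was a large part of the group's whole range (past Dixon's 95% critical value for that number of arrays). Chance gives such an array in about 1 in 20 groups, which comes to 11.4 of 228.

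Among the cardiac genes, ACTC1 was 14.33 in shunt pig 6 at 120 min (the other 5 pigs 14.16 to 14.21), TNNC1 was 14.22 in shunt pig 3 at 120 min (others 14.33 to 14.37), and TPM1 was 14.00 in shunt pig 4 at the last biopsy (others 13.75 to 13.82). Among the non-muscle genes, ACTG1 was lowest in control pig 3 both at baseline, with 14.40 (others 14.72 to 14.84), and at the last biopsy, with 14.57 (others 14.80 to 14.84). TPM4 was 11.10 in shunt pig 6 at baseline (others 10.15 to 10.45).

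Among the skeletal genes, MYH2 was 3.42 in shunt pig 1 at 120 min (others 3.89 to 4.15), TNNI1 was 7.04 in control pig 1 at the last biopsy (others 6.01 to 6.23), and TNNI2 was 6.47 in control pig 1 at baseline (others 6.07 to 6.17). MYO1F, the leukocyte myosin, was 6.23 in control pig 4 at 120 min (others 6.51 to 6.62).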

How the results depend on the processing

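Counts of genes called depended on the pig block and on single pigs. With no replicate block, the number called at 120 min was 2 in place of 4, and over the whole course of the shunt arm 3 in place of 8. The whole-course count was 5 with a random block and 5 with array weights. Fitted on shunt pigs 1 to 4 alone the counts were 2 and 4, and on shunt pigs 5 and 6 alone 0 and 0; on the control pigs alone the count at 120 min was 0. These fits hold fewer pigs. With 1 pig left out the count at 120 min ran from 2 to 6 (2 without shunt pig 3, shunt pig 4 or control pig 2), and that of the shunt arm's whole course from 4 to 10 (4 without shunt pig 3, 5 without shunt pig 1, 2 or 6 or control pig 1). In the control arm's whole course, where none passed, the count was 3 with array weights, 1 without the dimmest 30% of probe sets, 1 with the mean of a gene's probe sets, and 0 to 1 with 1 pig left out (1 without shunt pig 4 or 6). The baseline difference of MYO5B gave a count of 0 with median centring and 0 with the trended robust fit, and 0 to 1 with 1 pig left out. The other 5 counts of 0, for each arm in the last 60 min and for the differences between the arms in the last 60 min, the whole course and the response to banding, were 0 in every alternative run. The cause of these changes was not tested.

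Reversed directions came with other probe sets. At 120 min these were ACTG1 at -0.16, ACTN2 at 0.12, MYO5A at -0.29 and TPM2 at 0.97; over the whole course of the shunt arm ACTG1 at -0.48, TPM1 at 0.53 and ACTN2 at 0.17; and in the control arm TPM2 at 1.51. Of the values of single genes under alternatives, 178 kept direction and side of the threshold, 103 kept direction without passing, and 6 newly passed. Signal over background limits the dim genes: 33 of 38 were tested once the dimmest 30% of probe sets were left out.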

Other observations

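MYL4, TNNI1 and TNNT1, which other striated muscles or the developing heart use, were set beside NPPA pig by pig, as the change at 120 min against baseline in 11 pigs. The 6 pairs were chosen after their values were seen, and both changes of a pair share 1 baseline array per pig, so the coefficients are a description without a test. MYL4 and NPPA had r = 0.95 and rho = 0.864, with r = 0.912 without the 2 pigs farthest from the median NPPA change and 0.853 within the 6 shunt pigs. TNNI1 and NPPA had r = 0.80 and rho = 0.80, with r = 0.855 without the same 2 pigs and 0.761 within the shunt pigs. TNNI1 and MYL4 had r = 0.888 and rho = 0.936, with r = 0.90 without the 2 pigs farthest from the median MYL4 change and 0.929 within the shunt pigs.

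TNNT1 had r = 0.415 with NPPA, 0.509 with MYL4 and 0.30 with TNNI1. Its rho was 0.273, 0.491 and 0.309 with the same genes in that order, and its r without the 2 farthest pigs was 0.20, 0.31 and 0.661. The control arm holds 5 pigs, too few for a value of its own.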
